A study of Mus musculus with 2 samples.

Results

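The 8 genes described here encode cytokines and receptor chains of the common gamma chain system: the ligands Il2 and Il15, and the receptor chains Il2ra, Il15ra, Il7r, Il21r, Il2rb and Il2rg. They were taken by symbol from the 32285 genes counted in each cell, and all 8 were found. The cells were CD45+ leukocytes of MC38 tumors, MC38 being a mouse colon cancer line, grown under the skin of both flanks of C57BL/6 mice. In all mice the right tumor underwent microwave ablation (MWA) at about 300 mm3, and the cells came from the left tumor, which was not ablated itself, 8 days later. The label of the MWA group names the ablation alone, and by the study's text such mice were given an isotype control antibody with it. The MWA plus TIGIT group was given a TIGIT-blocking antibody into the peritoneum, 3 times at intervals of 3 days from day 1 after MWA according to the labels. There was 1 library in each group, the number of mice behind a library is not given in the sources used here, and no untreated tumor was measured.

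Interleukin-2 (IL-2), IL-7, IL-15 and IL-21 signal through receptors that all contain the common gamma chain, the product of Il2rg, which passes the signal to JAK1, JAK3 and STAT proteins. The IL-2 receptor beta chain (Il2rb) serves both IL-2 and IL-15, and the private alpha chains set the affinity: Il2ra, or CD25, gives regulatory T cells (Tregs) their high affinity for IL-2, while Il15ra binds IL-15 on the cell that makes it and presents it to neighbors. IL-7 receptor (Il7r) is known for the survival of naive and memory T cells, and IL-21 receptor (Il21r) for help to B cells and CD8+ T cells. In tumors these genes are followed because Tregs can consume the IL-2 that effector cells need.

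The MWA library held 10217 cell barcodes with 66152465 unique molecular identifiers (UMIs, each marking 1 captured transcript), and the MWA plus TIGIT library held 10190 barcodes with 78751205 UMIs. After filters 9231 and 9127 cells were kept, with medians of 5277 and 6279 UMIs per cell. The excess was uneven: the medians were 8744.5 and 10586 in C1q TAM-like, 4533 and 4534.5 in NK-like and 6538 and 6121 UMIs in cycling CD8 T-like cells rich in Mcm genes, and reads per library were not analysed here. The libraries shared 37 barcode sequences, 29 of them among kept cells. Where a pair of values follows, the first is of the MWA and the second of the MWA plus TIGIT group. The level of a gene in a type is its number of UMIs there for every 1000000 UMIs of that type and library (CPM), with exact Poisson 95% intervals, and shares of cells with a UMI are given after thinning each cell to 1000 UMIs where types or libraries are compared. Intervals and the limits that a count of 0 allows (3 counts) cover counting error only, and with 1 library per group no test between groups exists.

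Cell types were rebuilt by clustering without the 8 genes and named from markers. Treg-like cells held 473 and 542 CPM of Foxp3, the lineage factor of Tregs, in the MWA and the MWA plus TIGIT group, against 3.61 and 10.8 CPM in a Slamf6-high cluster of other T cells. NK-like cells held 266 and 236 CPM of Ncr1, an NK cell receptor, with 114 and 113 CPM of Cd3d, Cd3e and Cd3g together. Gamma-delta T-like cells also held 84.4 and 134 CPM of Cd4, against 143 and 165 CPM in Treg-like cells. At finer clustering resolution that name went to 72 cells with 0 CPM of Cd4, beside an Il22 T cluster of 167 cells with 157 CPM. The types of tumor-associated macrophages (TAMs) described here carry the name of C1q, Hmox1 or interferon-induced genes or of cycling, and the type named for Hmox1 (638 and 660 CPM) was led by the stress genes Hspb1, Hspa1b and Hspa1a. The leading genes of cDC2-like cells also held Siglech, a marker of plasmacytoid dendritic cells. These cells had 122 and 6.56 CPM of Cd8a and Cd8b1 together, so the type may be mixed. A cluster whose leading genes gave no name is called by a leading gene, such as the Slamf6 T, Ifitm3 T, Klra6 T, Satb1 CD8 T and Ccl1 CD8 T clusters. The Ccl1 CD8 T cluster also held 68.4 and 111 CPM of Cd4. At finer clustering resolution it had 132 cells with 7.51 CPM of Cd4, beside a Penk cluster of 51 cells with 404 CPM. In T cell types the 3 C1q genes, which macrophages make, summed to between 217 and 503 CPM outside the cluster of few UMIs, a measure of free or foreign RNA in these droplets.

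Over all kept cells Il2rg had 8330 UMIs with MWA and 9761 with MWA plus TIGIT, and Il2rb had 4673 and 4647. Il7r had 4622 and 5395 UMIs, Il21r 2469 and 2703, and Il2ra 2333 and 2390. Il15ra (509 and 508 UMIs), Il15 (325 and 435) and Il2 (200 and 233) were sparse. Because the 3′ method was not scaled to transcript length, levels are compared between types and libraries only, not between genes.

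On the mouse build GRCm38 (GENCODE annotation), Il2ra lay at chr2:11642807-11693193 and Il15ra at chr2:11705290-11734317, both on the plus strand, with 12096 bp between the end of the first and the start of the second. Il7r lay at chr15:9505788-9530176 and Il2rb at chr15:78479256-78495271, Il2 at chr3:37120523-37125959, Il15 at chr8:82331632-82403222 and Il2rg at chrX:101264378-101268255, all on the minus strand. Il21r lay at chr7:125603429-125633570 on the plus strand. The promoters of the neighbors Il2ra and Il15ra are shown because both of these private chains had their highest mean levels among the named types in Treg-like and mature DC-like cells. The sequences are from RefSeq (GRCm38.p6, plus strand) and cover chr2:11642542-11642791 and chr2:11705043-11705289. Capitals mark overlapping matches to the NF-kB motif, which begin 201 bases before the RefSeq start of Il2ra.
Il2ra: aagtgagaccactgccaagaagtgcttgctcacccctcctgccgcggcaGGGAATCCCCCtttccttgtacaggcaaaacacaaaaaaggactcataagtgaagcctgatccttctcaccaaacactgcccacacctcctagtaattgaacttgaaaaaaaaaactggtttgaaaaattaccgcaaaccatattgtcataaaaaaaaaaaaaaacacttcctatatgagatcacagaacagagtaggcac
Il15ra: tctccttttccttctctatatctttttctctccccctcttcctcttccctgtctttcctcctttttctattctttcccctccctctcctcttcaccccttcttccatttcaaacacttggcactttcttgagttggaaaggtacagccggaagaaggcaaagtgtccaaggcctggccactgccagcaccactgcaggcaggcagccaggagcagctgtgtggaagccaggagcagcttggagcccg
On both strands of each window 3 motifs were searched: the STAT site TTCNNNGAA, the interferon response core GAAANNGAAA and the NF-kB motif. Of 32851 promoter windows of the same kind 7.02% held the first, 2.98% the second and 3.9% the third. Il15ra had 2 windows, of which the first is shown, and neither held any of these motifs, and the Il7r window held the STAT site TTCAGGGAA 142 bases before its start. In all 6 of the 8 genes were matched to windows, the others being Il2rb and Il15. A match is a description of letters and not a bound site.

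Il2, the T cell growth factor, was low everywhere. In the Slamf6 T cluster it reached 31.9 CPM (23.9 to 41.8; 53 UMIs) with MWA and 25.4 CPM (18.1 to 34.5; 40 UMIs) with MWA plus TIGIT. Gamma-delta T-like cells held 25.3 CPM in both groups, with 9 and 10 UMIs, and the Ccl1 CD8 T cluster 3.80 and 37.8 CPM, with 2 and 18 UMIs. With MWA plus TIGIT the intervals of these types overlapped, so they are not ordered. Effector-like CD8 T cells held 9.33 and 8.00 CPM, and Treg-like cells held 3.91 and 2.69 CPM. The Ifitm3 T cluster was at 7.34 and 11.4 CPM, the Klra6 T cluster at 4.02 and 7.50 CPM and NK-like cells at 1.22 and 3.28 CPM. Named myeloid types lay between 0 and 9.65 CPM, and the highest of these values was 1 UMI in neutrophil-like cells.

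The Slamf6 T cluster therefore had 8.17 times (3.70 to 21.3) and 9.42 times (3.72 to 30.6) the Il2 of Treg-like cells. Few cells gave these counts: in the MWA group 1 cell of the Slamf6 T cluster held 29 of the 53 UMIs. The share of thinned cells with Il2 there was 1.41% and 2.33%, against 0.147% and 0.227% in C1q TAM-like cells, which should lack the gene. The median cell had 2704 and 2852 UMIs in the Slamf6 T cluster and 8744.5 and 10586 in the C1q type. Treg-like cells, at 0.367% and 0.391%, could not be told from that background. In the MWA group 1 cell of the Ctsk myeloid cluster, which also held T cell genes, carried 14 Il2 UMIs.

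Il15 was a myeloid transcript. Neutrophil-like cells held 232 CPM (148 to 345; 24 UMIs) with MWA and 165 CPM (102 to 253; 21 UMIs) with MWA plus TIGIT. Interferon-induced TAM-like cells held 24.7 and 31.1 CPM, mature DC-like cells 42.5 and 28.9 CPM, and C1q TAM-like cells 6.90 and 6.79 CPM. Neutrophil-like cells stood above every other type in both groups, and the intervals of mature DC-like and interferon-induced TAM-like cells overlapped.

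Within macrophages the interferon-induced type had 3.58 times (2.30 to 5.48) and 4.58 times (3.28 to 6.39) the Il15 level of the C1q type, and 10.7 times with MWA in cells of at most 5000 UMIs alone. Il15 had 0 UMIs in both libraries in B-like, Treg-like, exhausted-like, stem-like and gamma-delta T-like cells and in the Satb1 CD8 T cluster. In Treg-like cells that allows up to 1.67 and 1.62 CPM. Monocyte-like cells held 4.64 and 4.86 CPM and cDC2-like cells 0 and 3.28 CPM. In cDC1-like cells, with 56 and 24 cells, it was at 2.10 and 16.1 CPM, and in NK-like cells at 1.22 and 6.57 CPM. After thinning 16.0% and 16.5% of neutrophil-like cells had a UMI, among the 41 and 51 of them with enough UMIs, and 0 of 78 and 0 of 61 B-like cells, which allows up to 3.85% and 4.92%. The neutrophil-like cells were small in RNA, with medians of 921 and 1160 UMIs, and were identified by S100a8 and S100a9.

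**Figure D1:**
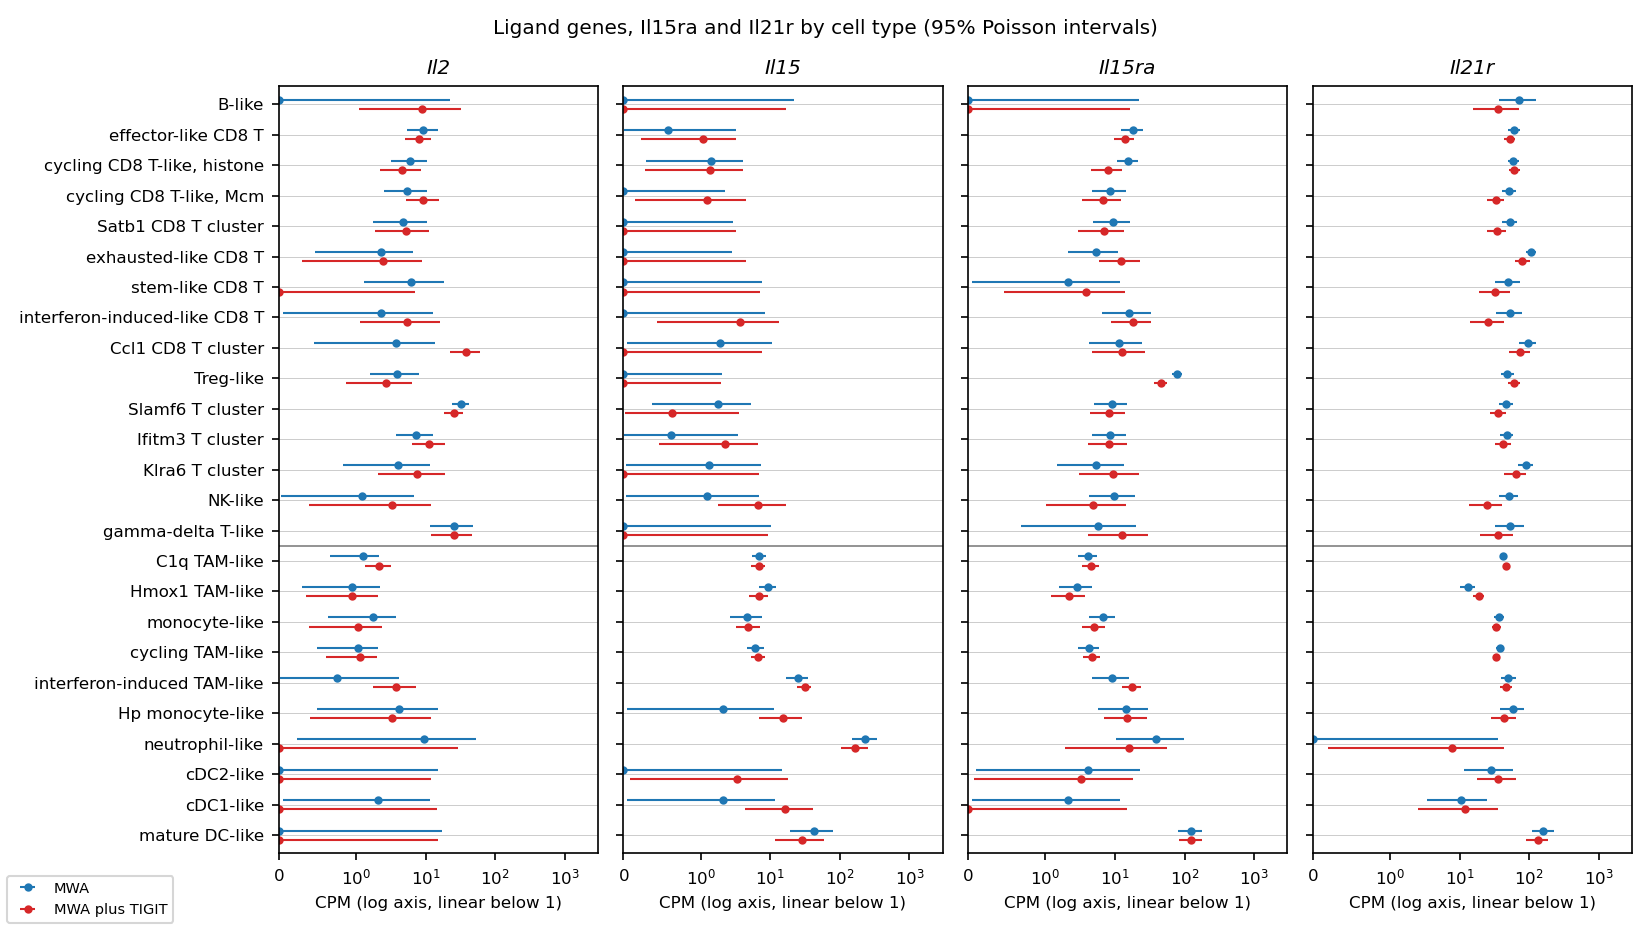
Levels of Il2, Il15, Il15ra and Il21r in CPM (log axis, linear below 1) by cell type, lymphoid types above the line and myeloid types below, blue for the MWA library and red for the MWA plus TIGIT library, with 95% Poisson intervals. Il15 peaked in neutrophil-like cells (232 and 165 CPM), Il15ra in mature DC-like (123 and 124 CPM) and Treg-like cells, and Il21r varied less between types.

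Il2ra marked Treg-like cells. Its level there was 917 CPM (873 to 963; 1643 UMIs) with MWA and 922 CPM (879 to 966; 1711 UMIs) with MWA plus TIGIT, and these cells, 7.98% and 6.79% of kept cells, held 70.4% and 71.6% of all Il2ra UMIs. The level was 33.8 times (25.2 to 46.6) and 32.3 times (24.0 to 44.5) that of the Slamf6 T cluster. With types set by marker UMIs in each cell, Tregs held 6.78 and 7.81 times the level of other CD4 T cells. A UMI was seen in 72.7% and 82.7% of Treg-like cells, or 52.0% and 55.9% after thinning. The same thinned shares were 0.0500% and 0.115% in C1q TAM-like cells. Single Treg-like cells held up to 18 Il2ra UMIs in both groups.

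A CD8 T cluster of few UMIs, with 144 and 42.0 CPM of Foxp3, held 315 and 420 CPM of Il2ra. Among the named types mature DC-like cells (Ccr7 and Fscn1 high) came below the Tregs, with 80.3 and 149 CPM of Il2ra from 17 and 36 UMIs. Gamma-delta T-like cells followed with 95.7 and 106 CPM and the Ccl1 CD8 T cluster with 87.4 and 101 CPM. In the order of the named types only the step from Treg-like cells to the next held in both libraries, and the intervals of mature DC-like and gamma-delta T-like cells and the Ccl1 CD8 T cluster overlapped. Mature DC-like cells had 120 times (47.2 to 341) and 105 times (57.0 to 203) the level of C1q TAM-like cells, or 54.9 and 47.8 times with types set by marker UMIs in each cell, while Foxp3 was at 0 and 24.8 CPM and the Cd3 genes at 104 and 124 CPM in them. The part of T cell RNA in the Il2ra of these DCs was not tested.

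Over the types called CD8 T here Il2ra was uneven. Cycling cells rich in histone genes held 96.4 and 69.6 CPM, against 21.3 and 19.9 CPM in cycling cells rich in Mcm genes, ratios of 4.52 (3.15 to 6.67) and 3.49 (2.37 to 5.29). The same histone-rich cells held 39.1 and 31.4 CPM of Foxp3 against 4.26 and 2.49 CPM in the Mcm-rich cells, and the part of cycling Tregs in their Il2ra was not tested. The Ccl1 CD8 T cluster had 2.38 times (1.55 to 3.65) and 2.22 times (1.41 to 3.50) the level of exhausted-like cells, which held 36.7 and 45.4 CPM. Cd4 was at 68.4 and 111 CPM in this cluster against 5.35 and 2.46 CPM in exhausted-like cells. The part of CD4 T cells in its Il2ra was not tested. Interferon-induced-like cells were at 25.2 and 21.9 CPM, effector-like cells at 7.58 and 10.9 CPM, and stem-like cells had 0 and 1 UMI. Outside CD8+ T cells the Ifitm3 T cluster held 41.0 and 53.0 CPM, the Slamf6 T cluster 27.1 and 28.5 CPM and NK-like cells 17.1 and 8.21 CPM. Every TAM-like, monocyte-like and neutrophil-like type was under 10 CPM in both libraries, and cDC2-like cells were at 8.11 and 36.1 CPM from 2 and 11 UMIs. The ratio of the cycling types depended on the processing. Without doublet removal it was 1.62 with MWA and 0.990 with MWA plus TIGIT, at finer clustering resolution 1.16 and 1.13, and with cells of at most 5000 UMIs alone 21.9 and 4.29. At finer resolution a cycling cluster of 55 cells stood apart, with Areg, Foxp3 and Il2ra among its leading genes and 21.9 CPM of Cd8a and Cd8b1. Without doublet removal such a cluster held 60 cells and 80.6 CPM of these Cd8 genes.

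Il15ra, which presents IL-15, had its highest levels among the named types in mature DC-like cells. It reached 123 CPM (80.2 to 180) and 124 CPM (83.6 to 177) there, with a UMI in 44.4% and 44.1% of cells, or 11.2% and 12.9% after thinning. Treg-like cells were next among the named types at 78.1 and 45.8 CPM, which was 8.65 times (5.07 to 15.9) and 5.55 times (3.08 to 10.9) the Slamf6 T cluster. With MWA the intervals of mature DC-like and Treg-like cells overlapped. The CD8 T cluster of few UMIs held 105 and 56.0 CPM from 8 and 4 UMIs. C1q TAM-like cells held 4.12 and 4.50 CPM, and B-like cells had 0 UMIs in both libraries, which allows up to 18.0 and 13.5 CPM. Interferon-induced TAM-like cells held 8.99 and 17.7 CPM and effector-like CD8 T cells 18.1 and 13.8 CPM, and neutrophil-like cells 38.6 and 15.7 CPM from 4 and 2 UMIs. The mature DC-like level was 29.8 times (17.6 to 49.6) and 27.5 times (16.9 to 44.1) that of C1q TAM-like cells. With MWA this ratio was 17.3 in cells of at most 5000 UMIs alone. With MWA plus TIGIT it was 43.7 for mature DCs over TAMs with types set by marker UMIs in each cell. Both Il15 and Il15ra had a UMI in 0.0694% and 0.127% of thinned interferon-induced TAM-like cells, beside products of their single shares of 0.0290% and 0.0750%, and these shares amount to less than 1 cell in each library.

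Il7r was highest in stem-like CD8 T cells and gamma-delta T-like cells. Stem-like cells, named by markers such as Lef1 and Ccr7, held 619 CPM (550 to 693) with MWA and 712 CPM (642 to 789) with MWA plus TIGIT, and gamma-delta T-like cells held 538 CPM (464 to 619) and 748 CPM (665 to 838). Their intervals overlapped in both libraries. Gamma-delta T-like cells also held Cd4, and the part of other T cells in their Il7r was not tested. After thinning 40.5% and 47.7% of stem-like cells had a UMI, against 1.42% and 4.29% of neutrophil-like cells, taken as the type that should lack the gene. Exhausted-like cells held 31.4 and 57.7 CPM, so stem-like cells stood 19.7 times (14.2 to 28.1) and 12.3 times (9.09 to 17.1) above them, or 10.9 and 8.34 times with the members allowed in the clustering. NK-like cells were lowest among T and NK cells, at 13.4 and 6.57 CPM. Further T cell types held less than the stem-like cells: the Ifitm3 T cluster (235 and 248 CPM), the Ccl1 CD8 T cluster (135 and 183 CPM), interferon-induced-like cells (131 and 124 CPM), the Satb1 CD8 T cluster (95.7 and 99.7 CPM) and the Mcm-rich cycling cells (63.3 and 72.9 CPM). B-like cells had 0 and 4 UMIs.

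Treg-like cells, often described as low for the IL-7 receptor protein, held 351 and 324 CPM of Il7r. That was near the Slamf6 T cluster with MWA (361 CPM) but below it with MWA plus TIGIT (427 CPM). In both groups it was above effector-like cells, at 105 and 93.5 CPM. Il7r and Il2ra occurred together in 14.9% and 13.8% of thinned Treg-like cells, beside 13.6% in both groups from the product of their single shares.

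Il7r was also a transcript of Hmox1 TAM-like cells. They held 141 CPM (131 to 152; 744 UMIs) with MWA and 158 CPM (149 to 169; 997 UMIs) with MWA plus TIGIT, and gave 16.1% and 18.5% of all Il7r UMIs, more than any other type. C1q TAM-like cells held 14.8 and 14.1 CPM. The Hmox1 type stood 9.58 times (8.04 to 11.5) and 11.2 times (9.48 to 13.3) above the C1q type. In cells of at most 5000 UMIs alone the ratio with MWA plus TIGIT was 24.2. Cd3 genes were at 14.4 and 5.88 CPM in these macrophages, and single cells held up to 12 and 16 Il7r UMIs. Mature DC-like cells held 255 and 277 CPM and cDC2-like cells 122 and 105 CPM, while cDC1-like cells held 18.9 and 0 CPM. Interferon-induced TAM-like cells (62.9 and 74.0 CPM) and monocyte-like cells (58.9 and 55.4 CPM) lay between the Hmox1 and the C1q type.

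Il21r, a receptor chain for help from T cells, was spread over lymphoid and macrophage types alike. Mature DC-like cells held 161 CPM (111 to 224) and 132 CPM (90.4 to 187), which was 15.3 times (5.95 to 50.1) and 10.9 times (3.42 to 55.9) the level of cDC1-like cells. Exhausted-like cells held 108 CPM (90.8 to 127) and 79.8 CPM (61.6 to 102), or 1.78 times (1.37 to 2.31) and 1.52 times (1.12 to 2.06) the level of effector-like cells. The Ccl1 CD8 T cluster (95 and 73.4 CPM) and the Klra6 T cluster (89.8 and 63.7 CPM) lay near them, and the Slamf6 T cluster was at 47.0 and 36.1 CPM. C1q TAM-like cells, taken as a type that should hold little of the gene, had 42.1 and 45.8 CPM and a UMI in 4.19% and 4.44% of thinned cells, close to Treg-like cells at 4.37% and 5.73%. Their level was 3.21 times (2.48 to 4.20) and 2.44 times (2.0 to 3.01) that of Hmox1 TAM-like cells (5.62 times with MWA plus TIGIT in cells of at most 5000 UMIs alone), so the gene differed between macrophage types beyond counting error, and no background share is read from them. In the order of the named types, no neighbors had intervals apart in both libraries for Il21r, Il2 or Il15ra.

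**Figure D2:**
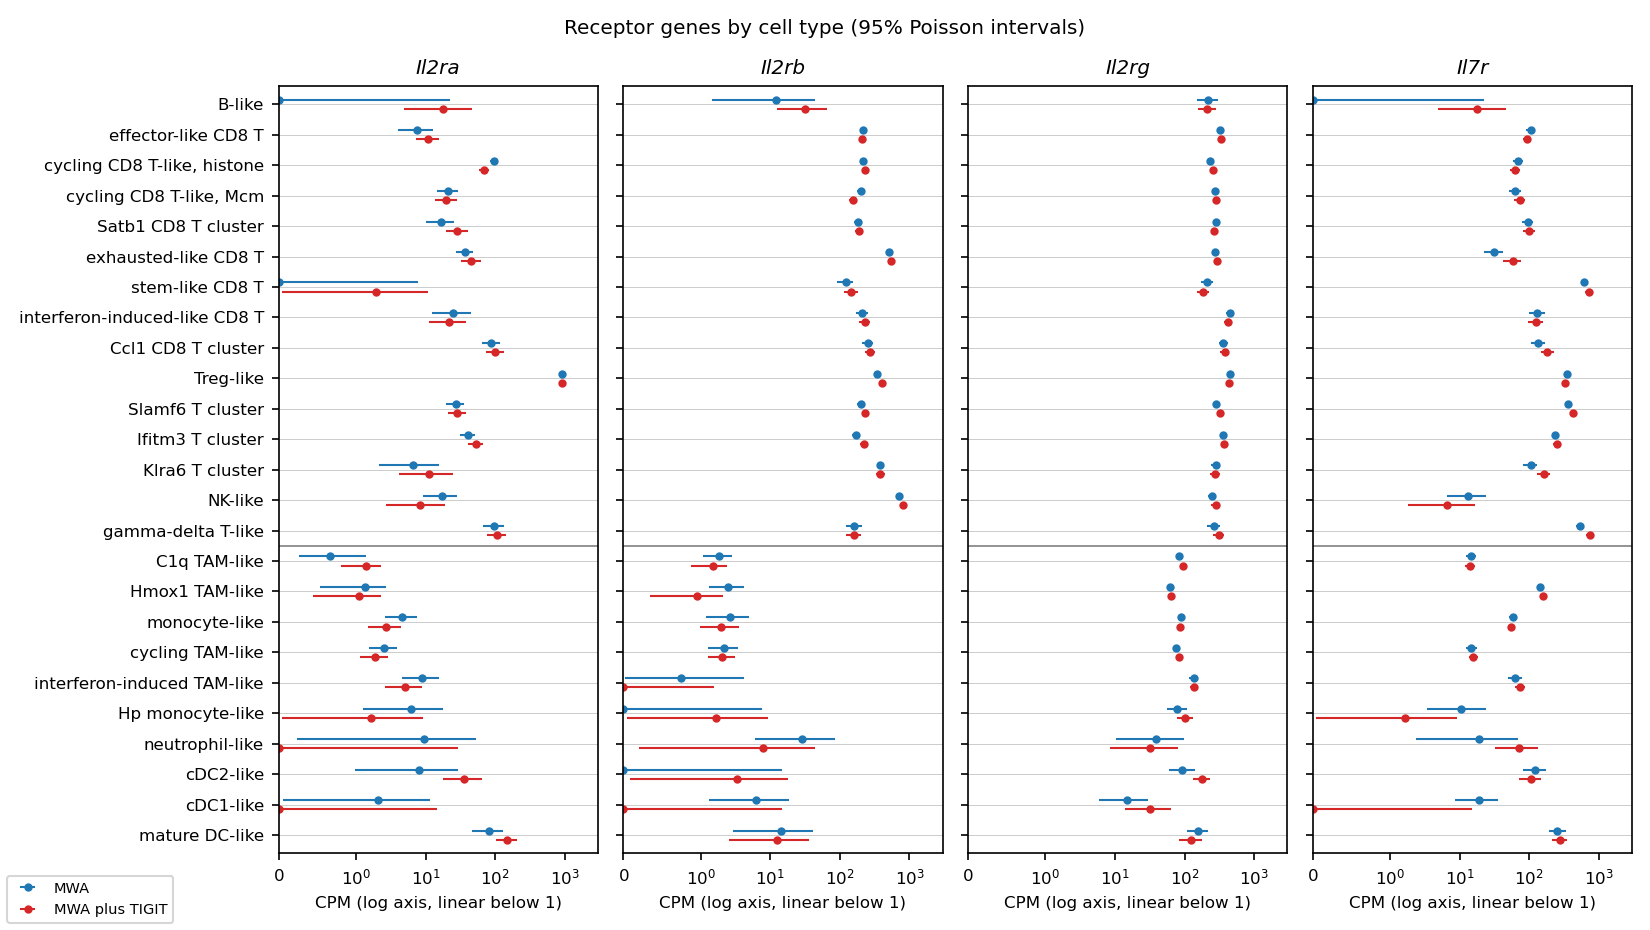
Levels of Il2ra, Il2rb, Il2rg and Il7r in CPM (log axis, linear below 1) by cell type, lymphoid types above the line and myeloid types below, blue for the MWA library and red for the MWA plus TIGIT library, with 95% Poisson intervals. Il2ra peaked in Treg-like cells (917 and 922 CPM) and Il2rb in NK-like cells, Il2rg was spread over all lymphoid types, and Il7r was high in stem-like, gamma-delta T-like and, among TAMs, Hmox1 TAM-like cells.

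Il2rb, the chain shared by the IL-2 and IL-15 receptors, was highest in NK-like cells. NK-like cells held 700 CPM (644 to 759; 573 UMIs) and 819 CPM (749 to 895; 499 UMIs), exhausted-like CD8 T cells 516 and 552 CPM, and Treg-like cells 344 and 400 CPM. Among the named types this order held in both libraries with intervals that did not overlap. NK-like cells were 3.23 times (2.83 to 3.68) and 3.89 times (3.44 to 4.39) above effector-like CD8 T cells, at 217 and 211 CPM, and for exhausted-like cells this ratio was 2.38 (2.09 to 2.71) and 2.62 (2.31 to 2.97). Exhausted-like cells were also 2.04 times (1.69 to 2.48) and 2.02 times (1.66 to 2.48) above the Ccl1 CD8 T cluster, the reverse of their order for Il2ra. Stem-like cells had the lowest values among the named T cell types, 121 and 146 CPM. The Klra6 T cluster, named for an NK receptor gene, was at 381 and 382 CPM and the Slamf6 T cluster at 199 and 232 CPM. In C1q TAM-like cells the gene was at 1.82 and 1.5 CPM, with a UMI in 0.210% and 0.156% of thinned cells against 51.3% and 56.4% of NK-like cells.

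Il2rg, the common gamma chain, was found in all leukocyte types. Among the named types it was highest in interferon-induced-like CD8 T cells, at 454 CPM (393 to 522) and 419 CPM (367 to 477), and in Treg-like cells, at 447 and 431 CPM, whose order differed between the libraries. Stem-like cells held 211 and 184 CPM, so the interferon-induced-like cells were 2.15 times (1.68 to 2.76) and 2.27 times (1.78 to 2.92) higher. NK-like cells, first for Il2rb, were at 248 and 281 CPM of Il2rg. Macrophages held less: 84.2 and 95.6 CPM in the C1q type and 62.3 and 63.2 CPM in the Hmox1 type, with effector-like CD8 T cells 3.81 times (3.42 to 4.25) and 3.49 times (3.19 to 3.81) above the C1q type. Interferon-induced TAM-like cells (135 CPM in both groups) and mature DC-like cells (156 and 124 CPM) lay above the C1q type, and B-like cells held 216 and 212 CPM. Neutrophil-like cells, high for Il15, had 4 UMIs of Il2rg in each library.

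The chains of the high-affinity IL-2 receptor met in Treg-like cells about as often as their single shares give. Il2ra and Il2rb both had a UMI in 15.3% (12.8 to 18.2) and 17.7% (14.7 to 20.9) of thinned Treg-like cells, beside products of 14.7% and 17.5%. All of Il2ra, Il2rb and Il2rg were seen in 5.24% (3.73 to 7.12) and 6.58% (4.75 to 8.84), beside 5.0% and 5.79%. In NK-like cells Il2rb and Il2rg met in 11.3% and 14.4%, as did the products, and in exhausted-like cells in 8.73% and 10.9%, beside 9.06% and 10.5%. None of these shares differed from the product beyond its interval. Thinning to 1000 UMIs lowers all of these shares.

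The profiles of the members over the 21 named types were set beside those of 8170 other genes, as Pearson's r of log2(CPM + 1) in each library. Types of 1 library share its depth and free RNA, so r is a description. Il2rb was most like Gm19585 (r of 0.95 with MWA and 0.97 with MWA plus TIGIT), Gimap3, Trbc1, Sytl3 and Sh2d1a. Il2ra was most like Tnfrsf4 (0.85 and 0.83), which was also a marker for naming Tregs, then Bclaf3, Socs2, Tnfrsf9 and Sdf4. Il2rg was most like Mettl23 (0.90 and 0.92), Gstp3, Prkca and Prkcz. Il15 was most like Zfand3 (0.82 and 0.85), Neat1, Tnfaip2, Pxn and Ptgs2, and Il15ra like Stat3 (0.77 and 0.75), Samsn1, Rab8b, Ptpn2 and Ttc39c. Il21r was most like Josd1 (0.85 and 0.79), Pyroxd1, Edf1, Smarce1 and Foxp4, Il7r like Rnf19a (0.76 and 0.82), Galnt6, Trat1, Mapk8ip3 and Tasp1, and Il2 like Cd40lg (0.73 and 0.70), Kcnk5, Tcrg-C1, Il12rb1 and Mtrex. Between members, r was 0.75 and 0.54 for Il2ra with Il15ra, and 0.70 and 0.82 for Il2rb with Il2rg.

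A list of 28 other genes of the pathway covers further ligands, receptor chains, JAK and STAT proteins, feedback inhibitors and targets. The other ligands were sparse: Il9 had 0 UMIs in both libraries, Il7 5 and 16, Il21 8 and 10, and Tslp 28 and 29. Il4 had 75 and 19 UMIs, of which 70 and 8 were in the Slamf6 T cluster, most of the 70 in 1 cell. Crlf2, the TSLP receptor that resembles the common gamma chain, was highest in Treg-like cells at 239 and 274 CPM. Of the feedback inhibitors, Cish was at 507 and 472 CPM in Treg-like cells, and Socs2 at 241 and 417 CPM in mature DC-like and 129 and 151 CPM in Treg-like cells. Socs1 was at 260 and 243 CPM in Treg-like and 291 and 190 CPM in interferon-induced-like CD8 T cells. Pim1, a kinase induced by these cytokines, was at 914 and 1027 CPM in Treg-like cells, and the survival factor Bcl2 at 395 and 456 CPM in the Klra6 T cluster. Mcl1, another survival factor, reached 2644 and 2834 CPM in neutrophil-like cells, and Stat3 349 and 384 CPM in mature DC-like cells.

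**Figure D3:**
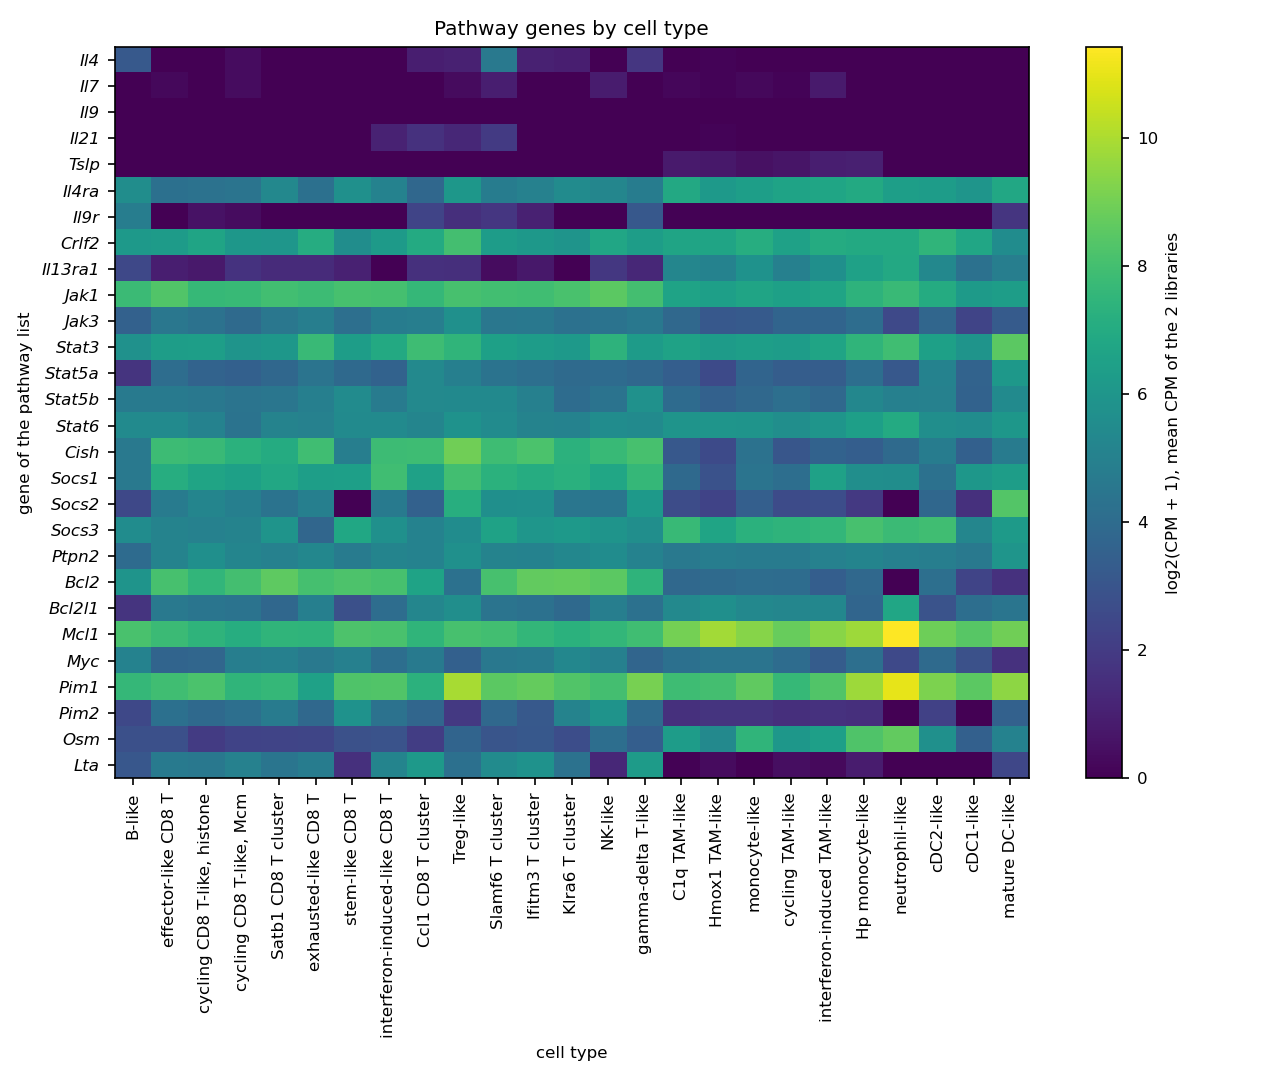
Levels of the 28 other pathway genes (rows) in 25 cell types (columns) as the log2 of the mean CPM of both libraries plus 1, from dark (low) to yellow (high). The ligands Il4, Il7, Il9, Il21 and Tslp are dark in nearly all types, Cish and Socs1 are brightest in T cells, and Mcl1 and Pim1 in neutrophil-like cells.

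Whether adding TIGIT blockade to MWA goes with another level of these genes was compared in the 25 types with at least 50 cells in each library. A value past the fold is one at least 1.5-fold higher or lower with at least 20 UMIs over both libraries. Of the 132 pairs of a member and a type with enough UMIs, 26 (19.7%) were past the fold, 9 (6.82%) higher and 17 (12.9%) lower in the MWA plus TIGIT group. Over all genes 15.1% of pairs were past it, 9.52% higher and 5.59% lower. The median log2 ratio of the members was -0.0046. Of all members' pairs 66 had a ratio above 0 and 66 below it, and 9 of the 17 lower ones past the fold were of Il21r. With cells of at most 5000 UMIs alone, 8 of 69 pairs (11.6%) were past the fold, 0 higher and 8 lower, beside 20.8% over all genes in those cells (8.5% lower).

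Il21r was lower past the fold in 8 of 16 lymphoid types and higher past it in 0, while 6.03% of all gene and type pairs in lymphoid types were lower past it. The ratio was below 0 in 14 of 16 and its interval lay below 0 in 4. In NK-like cells 42 UMIs with MWA and 15 with MWA plus TIGIT gave 51.3 CPM (37.0 to 69.3) and 24.6 CPM (13.8 to 40.6), a log2 ratio of -1.06 (-2.02 to -0.18), and 19.2% of all genes were past the fold there. Interferon-induced-like CD8 T cells gave -1.05 (-2.12 to -0.03) from 23 and 14 UMIs, beside 21.2% of all genes past the fold. The Mcm-rich cycling cells gave -0.65 (-1.17 to -0.14), beside 18.9%, and the Satb1 CD8 T cluster -0.61 (-1.21 to -0.03). Treg-like cells went the other way with 0.33, and histone-rich cycling cells gave 0.05.

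Over all T and NK cells together Il21r was at 59.8 CPM with MWA and 48.4 CPM with MWA plus TIGIT, a log2 ratio of -0.31 (-0.44 to -0.17) beside a median of 0.12 over all genes. In all CD8 T cells it was -0.38 (-0.55 to -0.20), beside a median of 0.13. Such pools also hold their types in other shares in each library: effector-like cells were 594 and 883 and exhausted-like cells, which held more Il21r, 209 and 120. All TAM-like cells gave 0.08 (-0.03 to 0.18), beside a median of 0.04 over all genes. Hmox1 TAM-like cells had 0.52 (0.07 to 0.97), from 69 and 118 UMIs and short of the fold, cycling TAM-like cells -0.15 and interferon-induced TAM-like cells -0.10, and 5 of 8 myeloid types were below 0. With cells of at most 5000 UMIs alone, NK-like cells gave -0.06, the Mcm-rich cells gave 0.03 (-0.41 as a mean over cells and -0.54 at finer resolution, both short of the fold), and 5 of 11 lymphoid types with enough UMIs were lower past the fold, beside 8.5% of the pairs of all genes in those cells.

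Il15ra was lower in Treg-like cells of the MWA plus TIGIT group. Its 140 UMIs with MWA and 85 with MWA plus TIGIT gave 78.1 CPM (65.7 to 92.2) and 45.8 CPM (36.6 to 56.6), a log2 ratio of -0.77 (-1.18 to -0.37), and 13.5% of all genes were past the fold in this type. Histone-rich cycling cells gave -0.97 (-1.91 to -0.08) from 33 and 17 UMIs, beside 15.6% of all genes, but only -0.44 at finer clustering resolution. These cells also held 39.1 and 31.4 CPM of Foxp3, and the part of cycling Tregs in their Il15ra was not tested. All 7 lymphoid types with enough UMIs had a ratio below 0, while below that limit 6 types, among them exhausted-like cells with 7 and 10 UMIs (1.20 (-0.34 to 2.83)), had a ratio above 0. All T and NK cells together gave -0.38 (-0.64 to -0.13). Interferon-induced TAM-like cells went the other way, with 0.97 (0.02 to 2.04) from 12 and 42 UMIs, beside 13.9% of all genes. That ratio was short of the fold, at 0.31 and 0.34, with the members allowed in the clustering and at finer resolution. In Treg-like cells Il2ra, the neighbor of Il15ra, had nearly the same level in both groups.

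Il7r was higher in exhausted-like CD8 T cells of the MWA plus TIGIT group, at 57.7 CPM (42.4 to 76.8; 47 UMIs) against 31.4 CPM (22.5 to 42.5; 41 UMIs). The log2 ratio was 0.88 (0.25 to 1.52), and 19.7% of all genes were past the fold in these cells. Without doublet removal it was 0.56, short of the fold. The Klra6 T cluster gave 0.62 (0.17 to 1.09), beside 20.9% of all genes, but 0.54 with TMM factors, which scale the libraries of a type to each other, short of the fold, and gamma-delta T-like cells 0.48 (0.21 to 0.75), short of the fold, beside 20.2%. Il7r was lower past the fold in 1 lymphoid type, the CD8 T cluster of few UMIs, at -1.04 (-2.29 to 0.09) from 22 and 10 UMIs. All T and NK cells gave 0.15 (0.08 to 0.23), close to the median of all genes, 0.12. In stem-like cells the ratio did not pass the fold, and 21.8% of all genes did. Hmox1 TAM-like cells gave 0.16 (0.03 to 0.30), beside 9.08% of all genes past the fold, but -0.25 with cells of at most 5000 UMIs alone.

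The shared chains seldom passed the fold in lymphocytes. Over all types, myeloid ones included, 15.1% of all pairs of a gene and a type were past it, and 7.63% of those with at least 50 UMIs. No share was computed for genes with as many UMIs as these chains, so their low count is not read as a trait of them. Il2rb was past it in 0 of 15 lymphoid types. Its interval lay above 0 in 4 of these types, from the Ifitm3 T cluster, at 0.38 (0.14 to 0.62), to Treg-like cells, at 0.22 (0.06 to 0.37), and below 0 in Mcm-rich cycling cells, at -0.38 (-0.63 to -0.14). The median over all genes was 0.12 in T and NK cells, and with TMM factors the ratios were 0.14 in Treg-like and 0.11 in NK-like cells. Shifted by these factors, the intervals of Treg-like and NK-like cells and of the Slamf6 T cluster reached below 0. In all TAM-like cells together, at 2.14 and 1.31 CPM, Il2rb gave -0.72 (-1.25 to -0.19) from 71 and 55 UMIs, beside a median of 0.04 over all genes. Il2rg was past the fold in 1 of 16 lymphoid types, the CD8 T cluster of few UMIs. Il2 and Il2ra were higher past the fold in C1q TAM-like cells (0.77 and 1.07) at 24 UMIs or fewer per library, beside 5.94% of all genes, and 9 of the 16 Il2ra UMIs with MWA plus TIGIT were in 1 cell. Il2ra was lower past it in monocyte-like cells (-0.78) and interferon-induced TAM-like cells (-0.83) and higher in the Satb1 CD8 T cluster (0.78), and all of these intervals held 0.

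Il2 in the Ccl1 CD8 T cluster went from 2 UMIs with MWA to 18 with MWA plus TIGIT, a log2 ratio of 3.31 (1.25 to 6.46), beside 22.0% of all genes past the fold. It was also higher past the fold in Mcm-rich cycling cells (0.77 (-0.52 to 2.14), 9 and 15 UMIs) and the Ifitm3 T cluster (0.63 (-0.56 to 1.86), 12 and 15 UMIs, or 0.53 with TMM factors, short of the fold). Of the 18 UMIs in the Ccl1 cluster 14 were in 1 of 3 cells with Il2. In the Slamf6 T cluster no member was past the fold, and 16.6% of all genes were.

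**Figure D4:**
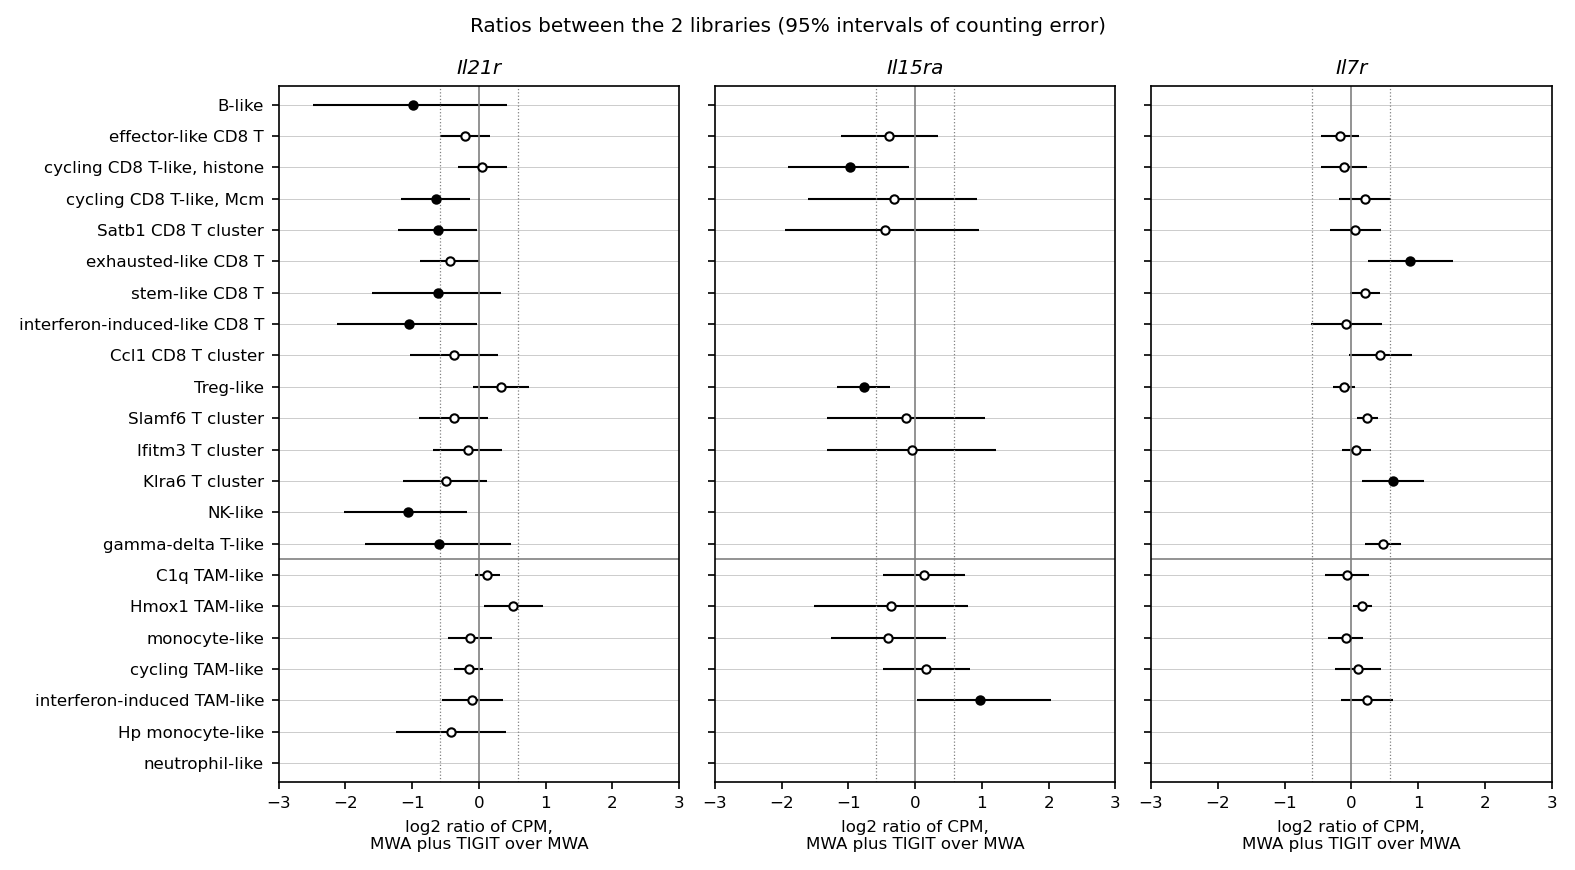
Log2 ratio of CPM, MWA plus TIGIT over MWA, of Il21r, Il15ra and Il7r by cell type, with 95% intervals of counting error. Filled points are past 1.5-fold (dotted lines), and types with under 20 UMIs are blank. Il21r lies left of 0 in most lymphoid types but not in Treg-like cells, Il15ra lies left of 0 in lymphoid types and right of 0 in interferon-induced TAM-like cells, and Il7r is highest in exhausted-like cells (0.88).

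In the list of 28 pathway genes 439 pairs of a gene and a type had enough UMIs, and 11.6% were past the fold, 27 higher and 24 lower, beside 15.1% of the pairs of all genes. The median log2 ratio was 0.07, as over all genes. In exhausted-like cells 6 of 20 genes were past the fold, beside 19.7% of all genes: Lta, a lymphotoxin (2.01 (1.07 to 3.01), 14 and 35 UMIs), Pim2, Stat5b and Bcl2l1 were higher, and Il4ra, the IL-4 receptor (-1.64 (-3.05 to -0.45), 35 and 7 UMIs), and Socs2 were lower. With TMM factors Stat5b (0.58) and Bcl2l1 (0.48) were short of the fold and Jak3 (-0.68) was past it. In Mcm-rich cycling cells 5 of 20 were past it, beside 18.9% of all genes, with Bcl2l1, a survival factor (1.68 (0.82 to 2.63), 15 and 47 UMIs), Stat6 (1.35 (0.54 to 2.23)), Lta and Socs2 higher and Pim2 lower. The Satb1 CD8 T cluster also had 5 of 20 past it, but 1 higher and 4 lower, beside 16.9% of all genes.

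Effector-like cells had Socs3 (-0.80 (-1.30 to -0.31)) and Myc (-1.10 (-1.99 to -0.23)) lower, beside 15.1% of all genes past the fold. Interferon-induced-like cells had Socs1, the inhibitor of JAKs, lower (-0.62 (-1.01 to -0.23), 127 and 104 UMIs) and Lta higher (0.61 (-0.46 to 1.75), or 0.54 with TMM factors, short of the fold), beside 21.2%. Hmox1 TAM-like cells had Myc lower (-0.89 (-1.30 to -0.49), 135 and 87 UMIs) and Pim2 too (-1.18 (-2.52 to 0.07)), beside 9.08%. Interferon-induced TAM-like cells had Osm lower (-0.79 (-1.13 to -0.45)) and Cish higher (0.93 (-0.12 to 2.12)), beside 13.9%. Of the 20 genes with enough UMIs in Treg-like cells and the 21 in C1q TAM-like cells 0 were past the fold, beside 13.5% and 5.94% of all genes. Il4 in the Slamf6 T cluster went from 70 to 8 UMIs, but 63 of the 70 were in 1 cell.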

How the data were processed

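The authors sequenced 3′ libraries of droplets (10x Genomics) and deposited UMI counts per gene and barcode, not normalized. The labels name Cell Ranger 6.1.1 and mm10, while the matrix header reads 4.0.0. The paper also gives 4 antibody injections where the labels give 3, and the labels were followed. Barcodes under 200 genes or over 10% mitochondrial UMIs were removed, and 806 and 786 called as doublets were removed by simulated neighbors (0.8% per 1000 barcodes). DoubletFinder, used by the authors, was not run.

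Cells were integrated and clustered with Seurat 5.3.0 (R 4.3.3), with 2000 variable and 3000 integration features, 40 principal components and resolution 0.1 from the methods of the study. Subclustering at resolution 1 for T and NK cells and 0.5 for CD8 T and myeloid cells was chosen here, as was keeping the 8 genes and the pathway list out of the features. The limit of 5000 UMIs per cell in those methods was an alternative. The authors' annotation was not used, so names were rebuilt, and the thresholds for naming were set after the first clustering was seen. In all 33 clusters gave 21 named types, and 1912 and 1652 cells stayed outside named types. The members, marker and pathway lists and the pairs of types were chosen with earlier results of these data known.

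UMIs were summed per type and library (Python 3.11.15, numpy 2.4.6, scipy 1.17.1, pandas 2.3.3). CPM have exact Poisson, shares exact binomial (Clopper-Pearson) and ratios exact conditional binomial 95% intervals. The thinned share is the share expected when each cell is thinned to 1000 UMIs without replacement, with smaller cells left out. Named genes are all members, a part of the pathway genes past the fold and pathway genes of high level. Named as well are the 5 genes most alike each member by the lower r of the libraries, among those that reach 20 CPM in a type of each library. With 1 library per group, p-values, replicates and pairs do not exist. The steps were tested on simulated data. Some genes and a cell type are not reported here. Alternatives are given below, TMM factors of edgeR 4.0.16 among them.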

Additional observations from a re-analysis of the deposited data

How the results depend on the processing

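Of 315 recomputed values 264 stayed within the counting interval of the reported value (for counts of genes or types, within 1.5 times), 49 moved further, among them Il7r in Hmox1 TAM-like cells, which was not past the fold and turned from 0.16 to -0.25 with cells of at most 5000 UMIs, and 2 others changed direction. The cause was not tested in any case. No paired analysis was possible because each group has 1 library. Types of few cells, doublets and the upper limit on UMIs, which removes large cells, bound what these data show. With cells of at most 5000 UMIs, the Il21r ratio became 0.0289 in Mcm-rich cycling cells and -0.0578 in NK-like cells, with 5 of 11 lymphoid types lower past the fold (8.5% of the pairs of all genes) and 8 of 69 pairs of members and types past it (20.8% of all genes). In that setting Il15 in neutrophil-like over C1q TAM-like cells was 96.4 and Il15ra in mature DC-like over C1q TAM-like cells 17.3 in the MWA group, Il2ra in Treg-like cells over the Slamf6 T cluster was 45.3 in the MWA plus TIGIT group, and Il2rb in NK-like over effector-like cells was 3.84 and 5.0, Il2rb in exhausted-like over effector-like cells 1.91 and 2.21, and Il7r in Hmox1 over C1q TAM-like cells 13.1 and 24.2.

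Without doublet removal the ratio of Il2ra between the cycling types was 0.990 in the MWA plus TIGIT group, and Il2rb gave 2.64 and 3.32 for NK-like and 2.0 and 2.12 for exhausted-like over effector-like cells. With the members allowed in the clustering, Il2rb in exhausted-like over effector-like cells was 1.97 and 2.16 and Il7r in stem-like over exhausted-like cells 10.9 and 8.34. At finer resolution Il7r in Hmox1 over C1q TAM-like cells was 13.5 and 20.6, and 43 pathway pairs were higher and 31 lower of 522 (14.2%, beside 15.7% of all genes). With types set by marker UMIs in each cell, Il2ra in Tregs over CD4 T cells was 6.78 and 7.81, Il2rb in NK over CD8 T cells 2.50 in the MWA group and Il15ra in mature DCs over TAMs 43.7 in the MWA plus TIGIT group. Thinned to 2000 UMIs, Il2ra was seen in 70.2% and 76.0% of Treg-like, Il2rb in 72.3% and 78.8% of NK-like and Il7r in 60.5% and 68.6% of stem-like cells. Pathway pairs past the fold were 44 higher and 38 lower of 492 from 10 UMIs (16.7%, beside 21.7% of all genes), 13 and 12 of 348 from 50 UMIs (7.18%, beside 7.63%), and 9 and 8 of 439 at a fold of 2 (3.87%, beside 3.81%). TMM factors lowered log2 ratios by up to 0.18 in T and NK types (they raised them by 0.09 in the CD8 T cluster of few UMIs) and 0.05 in TAM and monocyte types, which moved the Il7r ratio in exhausted-like cells to 0.73 and the Il21r count to 9 types. They also took Il2ra in histone-rich cycling cells past the fold, at -0.61. With TMM factors, a mitochondrial limit of 5% or means over cells, all recomputed values kept within the limits above.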
